A study of Mus musculus with 6 samples.

Results

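The antigen receptor loci of the mouse hold the gene segments from which B and T lymphocytes assemble immunoglobulins and T-cell receptors. CpG methylation was examined across 4 of them in mouse embryonic stem cells (mESCs). These are the immunoglobulin heavy chain locus Igh (chromosome 12, 113258000 to 116010000), the kappa light chain locus Igk (chromosome 6, 67555000 to 70727000), the T-cell receptor alpha and delta locus Tcra/Tcrd (chromosome 14, 52427000 to 54225000) and the T-cell receptor beta locus Tcrb (chromosome 6, 40891000 to 41559000), all in GRCm38. The windows described are those that lie wholly inside these bounds in a table of 100-CpG windows, chosen by position and without use of a methylation value. They number 464 of the 359192 windows of the table, with 90 in Igh, 305 in Igk, 9 in Tcra/Tcrd and 60 in Tcrb. A 100-CpG window holds 100 CpG cytosines counted over both strands, and its value is its percent CpG methylation in a library. How calls at single cytosines were combined into that value is not stated. The paper required only a minority of the CpGs of a window to be observed in each dataset. A value can therefore rest on far fewer than 100 cytosines.

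The cells were E14TG2a, an established line of mESCs of strain 129/Ola, cultured on gelatin with serum and LIF. Every culture received EdU, a thymidine analogue that marks replicating DNA, and was then stained for DNA content and sorted into G1 and G2/M populations, which are the 2 groups compared. Each group has 3 biological replicates of this single line, and the groups differ only in the sorted phase. The libraries were made by enzymatic methyl-seq (EM-seq), which reads 5-methylcytosine and 5-hydroxymethylcytosine together, and the comparison of phases asks whether methylation was complete by G2/M or still lower than in G1. The values are percentages without read counts, so the depth behind each of them is unknown. Reads were aligned to the GRCm38 reference, which is of strain C57BL/6J, whereas the cells are 129/Ola. No expression was measured, so the cell type could not be checked against marker transcripts.

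In developing lymphocytes the recombinase RAG1/RAG2 cuts beside V, D and J segments at recombination signals, each made of a heptamer, a spacer and a nonamer, and the ends are joined into 1 coding exon upstream of a constant (C) segment. Embryonic stem cells carry these loci in the unrearranged germline order. In the lymphocyte lineages CpG methylation of receptor loci is known to fall locally as segments and enhancers become active, and in cells outside those lineages the loci are generally silent and methylated.

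Segment ends with their signals are shown for the windows described singly in the results, read from the GRCm38 genome on the coding strand. In the first 3 sequences capitals mark an exact match to the heptamer CACAGTG, or to its reverse complement CACTGTG before a J segment. In Trbd2 they mark the D segment, whose flanking heptamers differ from that consensus. Ighv1-74 (chr12:115802609-115802707, minus strand) lies in the least methylated window of Igh, Ighv1-26 (chr12:114788333-114788431, minus strand) in the Igh window with the smallest p between phases, Igkj1 (chr6:70722523-70722599, plus strand) in the only J window of Igk, and Trbd2 (chr6:41542135-41542215, plus strand) in the least methylated window of Tcrb.
Ighv1-74: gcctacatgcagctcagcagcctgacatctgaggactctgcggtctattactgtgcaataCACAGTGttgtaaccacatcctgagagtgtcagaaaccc
Ighv1-26: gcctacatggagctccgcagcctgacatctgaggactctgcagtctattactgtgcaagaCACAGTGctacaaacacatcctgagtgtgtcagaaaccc
Igkj1: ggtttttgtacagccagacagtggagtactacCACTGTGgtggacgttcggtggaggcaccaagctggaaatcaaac
Trbd2: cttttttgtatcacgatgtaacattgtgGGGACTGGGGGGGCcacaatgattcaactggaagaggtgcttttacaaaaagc

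These 4 sequences hold 1, 1, 2 and 1 CpG. An exact heptamer, read away from the segment and starting within the first 11 positions after its end, was found beside 82 of the 115 V segments of Igh that are not annotated as pseudogenes (71.3%), 86 of 102 in Igk (84.3%), 96 of 115 in Tcra/Tcrd (83.5%) and 8 of 22 in Tcrb (36.4%). Among all consecutive stretches of the same 17 bases in these loci, 0.107% to 0.197% hold the heptamer on a given strand. The V segments not annotated as pseudogenes held 6.48 CpGs per kb in Igh, 4.06 in Igk, 11.9 in Tcra/Tcrd and 9.49 in Tcrb, and the short J segments 15.7, 55.3, 12.4 and 38.8. Annotated segments supplied 3.29% of the reference CpGs inside the windows of Igh, 2.15% in Igk, 6.26% in Tcra/Tcrd and 5.23% in Tcrb. The window values therefore come mostly from the DNA between segments.

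The windows did not span the loci equally. In Igk they spanned 98.4% of the bases and in Tcrb 96.0%, against 96.9% of all autosomes. In Igh they spanned 66.3%, with no window over the first 669 kb, and in Tcra/Tcrd 14.3%, with no window over the first 1536 kb. The uncovered end of Igh touches 78 segments, which are its C, D and J segments and the V segments nearest to them, from Ighv5-1 to Ighv7-2. Thus 0 of 9 C, 0 of 22 D and 0 of 4 J segments were overlapped, against 140 of 196 V segments. In Tcra/Tcrd the reverse held, and 4 of 136 V segments were overlapped against 61 of 62 J, 2 of 2 D and 2 of 2 C segments. In Igk 174 of 176 V and 5 of 5 J segments were overlapped but not the single C segment, and in Tcrb 33 of 35 V, 2 of 2 D, 14 of 14 J and 2 of 2 C segments. The values of Igh are thus values of the part of its V region farther from the D segments, and those of Tcra/Tcrd values of its D, J and C end. Spanned bases and overlapped segments were not all measured, because a window holds 100 CpG cytosines however many reference CpGs it spans. The window with Trdd1, Trdd2, Trdj1 and Trdj2 spans 1434 reference CpGs, most of which did not enter its value. In Igh the longest window spans 257 kb, and 3 windows exceed 50 kb. The V segments of Igh from Ighv3-3 to Ighv13-2 were also not overlapped by a window. An overlapped segment may therefore have no measured CpG near it.

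Igh was the least methylated of the 4 loci in every library. In order of replicate, its windows averaged 48.0%, 45.6% and 51.5% for the G1 libraries and 45.1%, 43.4% and 49.7% for the G2/M libraries, which gives 48.4% ± 2.93 in G1 and 46.1% ± 3.29 in G2/M (SD, n = 3). In Igk the values were 67.9%, 64.1% and 72.3% for G1 against 65.5%, 62.9% and 71.2% for G2/M, so its lowest library lay above the highest library of Igh. Tcrb was close to Igk, with 66.6%, 65.1% and 72.2% for G1 against 62.9%, 62.3% and 70.4% for G2/M. Tcra/Tcrd was the highest, with 69.5%, 65.9% and 77.8% for G1 against 70.2%, 69.5% and 76.6% for G2/M. The remaining 344316 autosomal windows had 63.0%, 60.7% and 69.1% for G1 against 61.8%, 60.1% and 68.4% for G2/M. Replicate 3 was the highest and replicate 2 the lowest in both phases at each locus, as in the other autosomal windows.

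**Figure D1:**
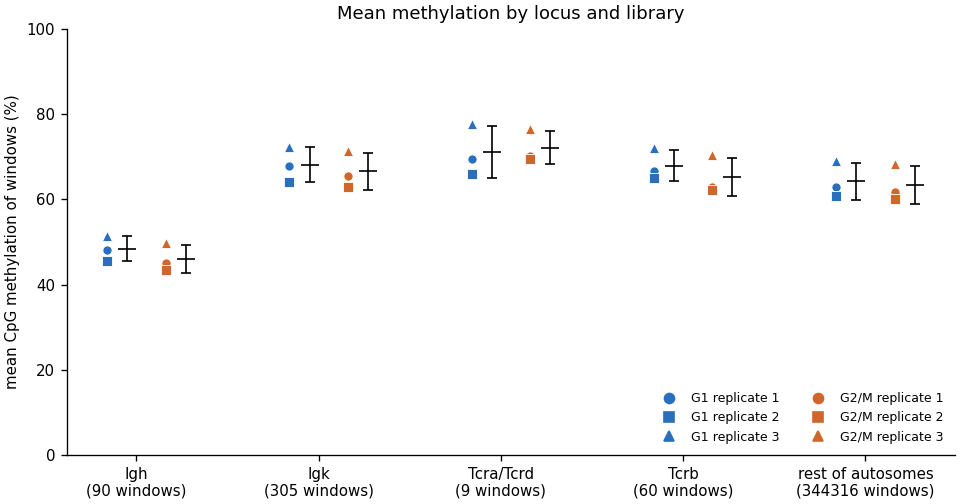
Mean CpG methylation (%) over the windows of each locus and of the other autosomal windows, with 1 point per library; black bars beside the points give the mean ± SD of 3 replicates. The 6 libraries of Igh lie between 43.4% and 51.5%, below all libraries of the other loci.

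Because the replicates differed in level, the loci were compared within each library, and the 2 libraries of a replicate number were averaged before a two-sided exact sign-flip test. That exact test cannot go below p = 0.25 with 3 numbers, so it can show only whether all 3 lie on one side. Relative to the other autosomal windows, Igh differed by -18.7 to -15.0 percentage points in the 6 libraries, with a mean difference of -16.6 ± 1.32 (SD, n = 3, exact p = 0.25). Igk was higher by 3.50 ± 0.731, Tcrb by 2.74 ± 0.518 and Tcra/Tcrd by 7.76 ± 0.618 percentage points, each in 6 of 6 libraries (exact p = 0.25 for each). With medians over windows in place of means, the difference of Igk became -0.329 and that of Tcrb -1.34, whereas that of Tcra/Tcrd was 3.29 and that of Igh -20.4. Between loci, the mean difference was -20.1 percentage points for Igh minus Igk, -19.3 for Igh minus Tcrb and -24.4 for Igh minus Tcra/Tcrd, with Igh lower in 6 of 6 libraries each. Igk minus Tcra/Tcrd was -4.26 and Tcra/Tcrd minus Tcrb 5.02 percentage points, with Tcra/Tcrd higher in 6 of 6 libraries. Tcra/Tcrd rests on 9 windows, and among windows of 4125 to 8718 bp, where it has 2, these differences turned to 2.40 and -1.28 and its difference from the other autosomal windows was 0.00611 percentage points. Igk and Tcrb differed by 0.761 ± 1.12 percentage points, with Igk higher in 5 of 6 libraries (exact p = 0.5), which is less than their spread. After Benjamini-Hochberg adjustment over the 6 pairs the exact p was 0.3 for 5 of them and 0.5 for Igk against Tcrb.

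Sequence next to the loci gave another reference within the same chromosome. The windows within 1 Mb on each side of Igh averaged 63.8% in G1 and 63.4% in G2/M, and Igh minus its flanks was -16.4 ± 1.39 percentage points, below 0 in 6 of 6 libraries (SD, n = 3, exact p = 0.25). Restricted to windows of 10 to 20 kb that difference was -15.0, and from 4125 to 8718 bp, where Igh has 3 windows, it was -6.26. Igk lay above its flanks by 4.40 ± 1.33 percentage points in 6 of 6 libraries. Among windows of 10 to 20 kb, which are closer to the length of its own windows, that difference was -0.907. Tcra/Tcrd lay above its flanks, which averaged 50.9% in G1 and 50.6% in G2/M, by 20.8 ± 1.43 percentage points, and by 12.4 among windows of 10 to 20 kb. Tcrb differed from its flanks by 0.567 ± 0.695 percentage points and was higher in 4 of 6 libraries (exact p = 0.5).

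The windows of the loci were longer than those elsewhere. The loci held 5.07 CpGs per kb in Igh, 5.34 in Igk, 7.26 in Tcra/Tcrd and 5.30 in Tcrb against 8.51 on the autosomes, and the windows of Tcra/Tcrd alone held 9.08. The median window length was 15457.5 bp in Igh, 10707 bp in Igk, 11004 bp in Tcra/Tcrd and 10410.5 bp in Tcrb, against 5686 bp elsewhere. Among other autosomal windows methylation fell with length only from 5 to 50 kb, at 68.0% for 5 to 10 kb, 65.1% for 10 to 12.5 kb, 62.7% for 12.5 to 15 kb, 60.2% for 15 to 20 kb and 57.5% for 20 to 50 kb. Windows of up to 5 kb had 59.4% and those over 50 kb 62.2%. From 5 to 20 kb Igh had, in the same order, 54.6% (5 windows), 50.0% (18 windows), 48.6% (18 windows) and 44.6% (27 windows), whereas Igk had 69.6%, 65.8%, 64.1% and 63.2%. Igh was thus the lower of the pair in every length class that both occupy. Restricted to windows of 10 to 20 kb, the difference of Igh from the other autosomal windows was -16.4 percentage points, and restricted to the middle of the length distribution, from 4125 to 8718 bp, it was -8.36 on 3 windows.

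**Figure D2:**
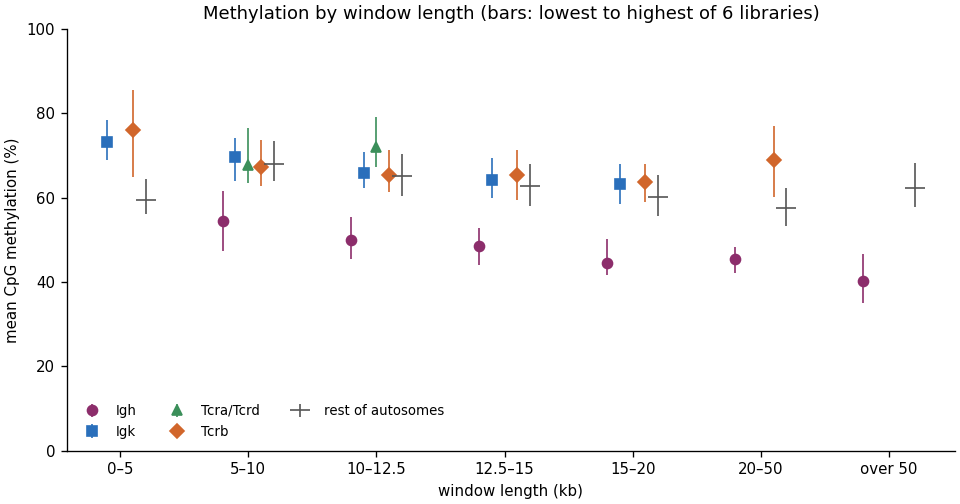
Mean CpG methylation (%) by window length (kb) for the 4 loci and for the rest of the autosomes, as the mean of 6 libraries with bars from the lowest to the highest library; classes with 1 window of a locus are left out. Igh lies below the other loci and the rest of the autosomes in each class where it has windows.

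The windows of Igh also spanned more CpGs of the reference than the nominal 50 dinucleotides. Over 55 reference CpGs were found in 69 of 90 windows of Igh (76.7%), in 50 of 305 in Igk (16.4%), in 9 of 9 in Tcra/Tcrd, in 7 of 60 in Tcrb (11.7%) and in 14.5% of other autosomal windows. Among windows with at most 55 reference CpGs, Igh had 48.3% on 21 windows and the other autosomal windows 64.9%, a difference of -16.6 percentage points. The part of the strain of the reference in these windows was not tested. Soft-masked sequence, which is mostly interspersed repeats, made up 45.5% of the bases in the windows of Igh, 51.8% in Igk, 21.1% in Tcra/Tcrd and 41.9% in Tcrb. Across the windows of a locus, the soft-masked share and methylation had a Pearson correlation of 0.40 in Igh (n = 90), 0.22 in Igk (n = 305), 0.32 in Tcrb (n = 60) and 0.0056 in Tcra/Tcrd (n = 9), as a description over windows that share libraries and lie side by side. Among the 24 windows of Tcrb with a segment it was 0.063.

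The low level of Igh was spread along the part of its V region that had windows. Of its 90 windows, 58 had a mean below 50% (64.4%), against 12.7% of other autosomal windows, and 89 lay below 60%. Below 50% there were 7 of 305 windows in Igk, 0 of 9 in Tcra/Tcrd and 0 of 60 in Tcrb. When each locus was divided into 10 equal parts, the parts of Igh with windows ranged from 45.1% to 48.5%. Parts 1, 2 and 4 of Igh held 0 windows and part 3 held 1. Those of Igk ranged from 65.5% to 70.2% and those of Tcrb from 59.5% to 69.4%, so no part of either overlapped the range of Igh. In Tcrb the lowest part, with 6 windows between 200.4 and 267.2 kb from the start of the locus, lay in the V region.

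Single windows marked the ends of these ranges. The lowest window of Igh (chr12:115792467-115807925, 29.4%) holds Ighv1-74, a V segment of the large Ighv1 family, and had 28.9%, 25.4% and 30.5% for G1 against 27.9%, 28.5% and 35.1% in G2/M. All 6 of these values lie below 36%, and the phases overlap. The highest window of Igh (chr12:114618915-114627061, 62.7%) holds no segment and ranged from 50.4% to 71.9%. The windows with an Ighv1 segment (58 windows) averaged 46.9% in G1 and 44.4% in G2/M, and the 7 windows with an Ighv8 segment and no Ighv1 segment 50.0% and 48.3%. The latter were higher in 6 of 6 libraries, and this difference was not tested. In Igk the lowest window (chr6:70488897-70492648, 29.1%) holds no segment and had 28.1%, 25% and 43.0% for G1 against 25.8%, 27.9% and 24.7% for G2/M. It is short and rich in CpGs, with 14.9 CpGs per kb, and 70.7% of it is soft-masked. The highest window of Igk (chr6:70210677-70212677, 86.3%) overlaps the gene Gm8828.

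The 200 bases with the most CpGs are shown for both lowest windows to set their composition side by side, on the plus strand with CpGs in capitals. That of Igh is chr12:115794843-115795042, with 5 CpGs and 12% soft-masked bases, and that of Igk is chr6:70489242-70489441, with 15 CpGs and soft-masked throughout.
Igh lowest window: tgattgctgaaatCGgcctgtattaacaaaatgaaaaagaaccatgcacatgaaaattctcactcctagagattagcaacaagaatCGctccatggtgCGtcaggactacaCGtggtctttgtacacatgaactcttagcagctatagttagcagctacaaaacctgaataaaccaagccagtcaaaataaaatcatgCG
Igk lowest window: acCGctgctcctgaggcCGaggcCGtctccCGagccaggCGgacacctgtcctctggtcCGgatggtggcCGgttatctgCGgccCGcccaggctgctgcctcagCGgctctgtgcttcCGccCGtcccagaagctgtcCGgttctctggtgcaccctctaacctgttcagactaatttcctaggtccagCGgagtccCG
The densest stretch of the Igh window thus holds a smaller number of CpGs than that of the Igk window of like methylation.

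The windows over the joining ends of the T-cell receptor loci and of Igk were methylated. The Igk window with Igkj1 to Igkj5 (chr6:70718907-70724881), the targets of kappa light chain joining, had 82.2%, 72.0% and 74.9% for G1 against 75.3%, 74.7% and 76.6% in G2/M. In Tcrb the window with Trbd1 (chr6:41524986-41533215) averaged 63.2% and the window with the Trbj1 segments (chr6:41533216-41538440) 70.4%. The next window (chr6:41538475-41543835), with Trbd2, most Trbj2 segments and the end of Trbc1, was the lowest of the locus at 54.5%, with 55.2%, 53.4% and 67.4% for G1 against 49.2%, 61.5% and 40.2% in G2/M. It is followed by the window with Trbj2-7 and Trbc2 (chr6:41543848-41550090) at 73.5%. The libraries of the Trbd2 window ran from 40.2% to 67.4%, and it was below the windows on both sides of it in 6 of 6 libraries and below the Trbd1 window in 5 of 6. The highest window of Tcrb (chr6:41243221-41250943, 82.6%) holds no segment.

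In Tcra/Tcrd the 9 windows ranged from 64.9% to 79.4%. The window with the delta segments Trdd1, Trdd2, Trdj1 and Trdj2 (chr14:53962961-54138287) is 175 kb long and had 82.4%, 62.1% and 84.3% for G1 against 78.0%, 72.0% and 81.9% in G2/M. Most of the 1434 reference CpGs that it spans did not enter its value, so CpGs near these segments may not have been measured. The window with Trdc, the delta constant segment (chr14:54138492-54149553), averaged 68.6% and the window with Trac, the alpha constant segment (chr14:54210055-54220763), 74.4%. The alpha J segments lie in 7 windows after that of Trdc, the last of which holds Trac, and the lowest of these holds Traj48 to Traj41 (chr14:54169597-54176563, 64.9%) and the one after it Traj40 onward (chr14:54176607-54188310, 79.4%). Single libraries of these windows ran from 50.0% to 86.7%, so the order of the windows differed between libraries.

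Windows that hold a gene segment were less methylated than those that hold none. In Igh the 70 windows with a segment averaged 47.3% in G1 and 44.8% in G2/M and the 20 windows without 52.3% and 50.3%, a difference of -5.25 ± 1.53 percentage points (SD, n = 3, exact sign-flip p = 0.25). In Igk the difference between 153 and 152 windows was -3.07 ± 0.0942, and in Tcrb that between 24 and 36 windows was -4.38 ± 1.68 percentage points (exact p = 0.25 for each). Each difference was below 0 in 6 of 6 libraries, from -8.88 to -3.49 in Igh, from -4.01 to -1.94 in Igk and from -7.83 to -2.40 in Tcrb. In Tcra/Tcrd every window holds a segment, so no such comparison was possible. Within Igh the 33 windows with 1 segment averaged 48.6% in G1 and 46.2% in G2/M, the 26 with 2 segments 47.5% and 46.1%, and the 11 with 3 or more 42.5% and 37.7%. In both libraries of replicate 1 the Igh windows with 2 segments lay above those with 1, at 47.7% against 47.0% for G1 and 46.3% against 45.2% for G2/M. Those with 3 or more were the lowest in each library, and the part of window length was not tested. In Tcrb the 7 windows with 3 or more were also the lowest in each library, but its windows with 2 segments averaged above those with 1. Among Igh, Igk and Tcrb, the means fell from 1 to 2 to 3 or more segments in both phases only in Igh. In Igk the means were 66.9%, 66.2% and 63.2% for G1 against 65.2%, 63.5% and 64.8% in G2/M, and in Tcrb 65.1%, 67.2% and 62.3% for G1 against 63.3%, 64.8% and 60.8% in G2/M.

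**Figure D3:**
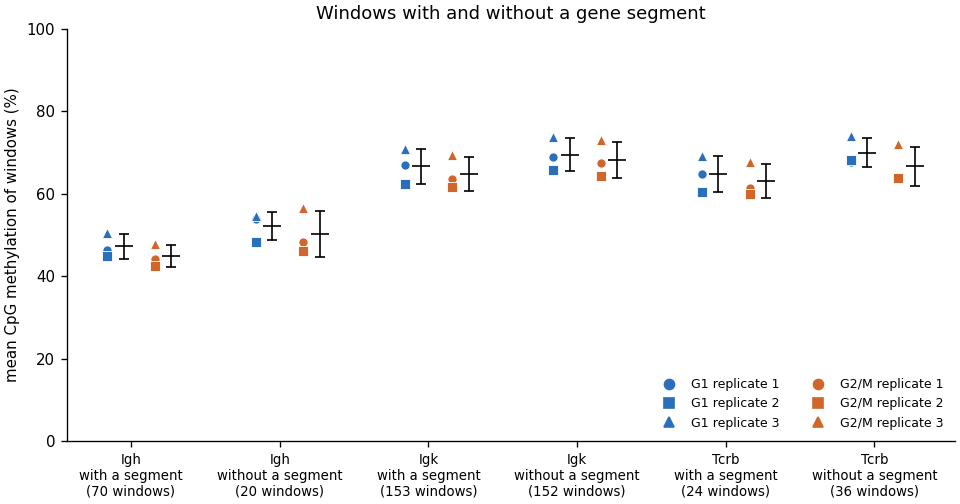
Mean CpG methylation (%) over windows with and without an annotated V, D, J or C segment in Igh, Igk and Tcrb, with 1 point per library and the mean ± SD of 3 replicates as black bars. Within each library the windows with a segment lie lower, with differences from -8.88 to -1.94 percentage points.

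Other properties moved with this split. Windows with a segment were longer in Igh (median 16582 bp against 11749.5 bp) and Igk (12221 bp against 8277.5 bp) but not in Tcrb (9505.5 bp against 11120 bp). Their soft-masked share was lower in each locus, 43.4% against 58.5% in Igh, 44.9% against 62.4% in Igk and 29.4% against 48.9% in Tcrb. The part of repeats in the difference was not tested. With windows of 10 to 20 kb the difference was -2.93 in Igh, -1.83 in Igk and -4.31 in Tcrb. With at most 55 reference CpGs it was -0.670 in Igh, on 17 windows with a segment and 4 without, -3.07 in Igk and -3.68 in Tcrb. In Igk it turned to 3.90 in the middle of the length distribution, from 4125 to 8718 bp, where 18 windows with a segment and 66 without remained. In Tcrb it was -3.86 there, on 8 windows with a segment and 9 without. Where only windows whose centre lies within 1 kb of a segment were counted as segment windows, the difference was -0.486 in Igh (16 windows, exact p = 0.75), -2.71 in Igk and -1.22 in Tcrb (exact p = 0.5).

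The factors that act on these loci lie elsewhere in the genome, and 10 of 11 had a window at their annotated start (Lig4 had none). Those of lymphocytes were methylated there, with 60.4% to 75.1% at Rag1 and 62.1% to 74.9% at Rag2, which encode the recombinase, and 58.9% to 87.2% at Dntt, which adds untemplated bases at the joints. Of the general factors with a window, all but Xrcc6 lay below these ranges in every library. Xrcc6 averaged 59.1%, against 68.5% at Rag1, 67.1% at Rag2 and 72.4% at Dntt, and its range overlapped theirs. These windows differ in length, with 6725, 5299 and 4087 bp at Rag1, Rag2 and Dntt against 728 to 834 bp at Hmgb1, Prkdc and Nhej1. That of Xrcc4 has 5535 bp, and the part of window length was not tested. Hmgb1, a DNA-bending cofactor of the recombinase, was listed at 0% in all 6 libraries, and Nhej1 and Prkdc, which act in end joining, did not exceed 2.27% and 2.94%. Dclre1c, which opens hairpin ends, had 17.7% to 26.6%, Xrcc5 8.58% to 22.9% and Xrcc4 23.1% to 32.2%, whereas Xrcc6 had 46.6% to 77.4%. None of the 10 windows passed the limma test between phases at an adjusted p under 0.05, or at an unadjusted p under 0.05 (the lowest was 0.150, at Xrcc5). The other receptor loci, taken as the windows that overlap their segments, averaged 62.8% over the libraries in the lambda light chain locus (5 windows) and 65.4% in the T-cell receptor gamma locus (12 windows), both above every library of Igh.

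Between the phases, G1 exceeded G2/M slightly in 3 of the 4 loci. The differences of same-numbered libraries were 2.90, 2.28 and 1.74 percentage points in Igh, 2.40, 1.18 and 1.03 in Igk and 3.65, 2.84 and 1.80 in Tcrb. In Tcra/Tcrd they were -0.692, -3.64 and 1.21, so that locus showed no common direction. The SD of these paired differences was 0.577 in Igh, 0.754 in Igk, 0.925 in Tcrb and 2.45 in Tcra/Tcrd, and with the replicate block the exact sign-flip p was 0.25, the smallest possible, in Igh, Igk and Tcrb and 0.75 in Tcra/Tcrd. The group means differed by 2.31 in Igh, 1.53 in Igk, -1.04 in Tcra/Tcrd and 2.77 in Tcrb, each smaller than the SD between replicates of a phase, which includes the level shared by same-numbered libraries (two-sided exact permutation p = 0.4, 0.7, 0.9 and 0.5, adjusted p = 0.9 for each, where 0.10 is the lowest that 3 against 3 can give). Over all 464 windows the difference was 1.79 percentage points (exact permutation p = 0.6), and over the other autosomal windows it was 0.843. After each library was centred on its mean over the whole table, the difference was 1.44 in Igh, 0.662 in Igk, -1.91 in Tcra/Tcrd and 1.89 in Tcrb (exact permutation p = 0.3, 0.5, 0.3 and 0.1).

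**Figure D4:**
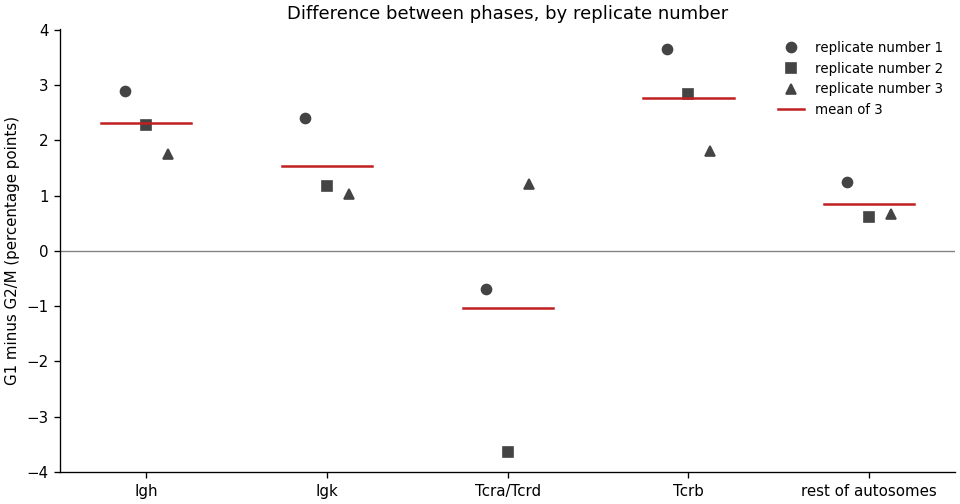
Difference of mean CpG methylation, G1 minus G2/M (percentage points), for each replicate number at each locus and in the rest of the autosomes; red lines are means of 3. All 3 differences are above 0 in Igh, Igk and Tcrb, and they fall on both sides of 0 in Tcra/Tcrd.

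Window by window, shares with G1 higher lay slightly above those of the whole table, and shares with G1 lower below them. These differences between shares were not tested. All 3 matched differences were above 0 in 83 of 464 windows (17.9%), against 16.3% of all windows, and all below 0 in 26 (5.60%), against 9.74%. The 3 G1 libraries were all above the 3 G2/M libraries in 28 windows (6.03%), against 4.12%, of which 9 were in Igh (10.0% of its windows), 15 in Igk and 4 in Tcrb. They were all below in 4 (0.862%), all in Igk, against 1.98%. In the limma test 8 windows (1.72%) had an unadjusted p under 0.05, 1 in Igh and 7 in Igk, all higher in G1. Of all windows, 1.36% passed in that direction and 0.75% in the other. With the replicate block, 11 of the 464 windows passed with G1 higher, against 11108 of all 359192, and 3 with G1 lower, against 6248. Both were smaller shares in the loci. After Benjamini-Hochberg adjustment over the table, limma called 0 of the 464 windows, against 0.00223% of all windows.

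The smallest p belonged to a window of Igk without a segment (chr6:69949184-69959788), which had 73.7%, 73.2% and 79.5% for G1 against 58.0%, 61.8% and 57.7% in G2/M. Its groups do not overlap (difference 16.3 percentage points, limma adjusted p = 1). The next was the Igh window of Ighv1-26 (chr12:114783173-114803065), whose segment end is shown above, with 60.2%, 65.2% and 56.2% for G1 against 45.6%, 44.0% and 44.7% in G2/M (difference 15.8 percentage points, limma adjusted p = 1). In the other direction the smallest p was in the Igk window of Igkv12-49, a V pseudogene (chr6:69708572-69720594), with 65.5%, 57.8% and 68.0% for G1 against 72.8%, 70.0% and 76.2% in G2/M (limma adjusted p = 1). The second was an Igk window without a segment (chr6:68799173-68800972), whose groups overlap (limma adjusted p = 1).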

How the data were processed

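EM-seq libraries of sorted G1 and G2/M mESCs, 3 of each, were trimmed by the authors with Trim Galore 0.6.4, aligned to GRCm38/mm10 with Bismark 0.22.1 and Bowtie2, cleared of duplicates, poorly mapped reads and outlier regions, and summarised over 100-CpG windows observed in every dataset. The deposited values are percent methylation per window and library, with no coverage and no stated normalization between libraries. No interval or detection limit could be computed from them.

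Here, means over windows were taken per library. Loci, flanks and segment classes were compared within libraries by exact sign-flip tests over replicate numbers, and phases by exact permutation tests. The G1 and G2/M libraries of a number were averaged because the study speaks of matched replicates. Deviations of same-numbered libraries from their group means correlated by only 0.0274 to 0.0549 over windows. This correlation leaves out the level of each library, so it does not measure how far same-numbered libraries shared the level of a locus. Phases were tested without the replicate block, and the paired differences with their sign-flip p are given beside them. For single windows, limma 3.58.1 (R 4.3.3, eBayes with a trend) was fitted to log2((percent + 1)/(100 - percent + 1)), adjusted over 359192 windows. The step was tested on simulated data. Segments and genes came from GENCODE vM21, and sequences and soft-masking from the RefSeq copy of GRCm38. The windows described singly are the lowest and highest of each locus, those with D, J or C segments in classes of at most 10 windows, and for each direction the 2 of smallest limma p. The members, lists and windows were chosen with earlier results of these data known. Alternatives changed the summary, weighting, membership, window length, flank size, offset, scale, centring, filter, block and libraries. Those by windows of 10 to 20 kb, by at most 55 reference CpGs, without windows over 50 kb and between the outermost segments were chosen after seeing the data. Spiked-in controls were not used here.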

Additional observations from a re-analysis of the deposited data

How the results depend on the processing

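Of 252 recomputed values, 226 kept their direction, or stayed within 1.5 times for a count. The exact tests cannot reach 0.05 with these libraries, so their p-values say nothing about stability, and a value close to 0 such as Tcra/Tcrd minus the other autosomal windows at 0.00611 (windows from the 25th to the 75th percentile of length) is among those counted as kept. With medians over windows, Igk minus the other autosomal windows was -0.329, Tcrb minus the same -1.34, Igk minus its flanks -1.11, Tcrb minus its flanks -2.54, and G1 minus G2/M in Tcra/Tcrd 0.668. With windows from the 25th to the 75th percentile of length, all 4 loci minus the other autosomal windows (main value -0.420) was 1.88, Igk minus Tcra/Tcrd 2.40, Tcra/Tcrd minus Tcrb -1.28, Tcrb minus its flanks -0.355, and the segment difference of Igk 3.90, while that of Igh gave no value because none of its 3 windows there holds a segment. With at most 55 reference CpGs, all 4 loci minus the other autosomal windows was 0.867 and Tcrb minus its flanks -0.338. With G1 libraries alone the first of these was 0.0556. With windows of 10 to 20 kb, Igk minus Tcrb was -0.368 and Igk minus its flanks -0.907. The cause of these changes was not tested.

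With a library left out in turn, G1 minus G2/M ranged from 0.759 to 4.14 in Igh, from -0.555 to 3.88 in Igk, from -4.41 to 1.57 in Tcra/Tcrd, from 0.655 to 5.36 in Tcrb and from -0.219 to 4.07 over all 4 loci. It turned below 0 in Igk when G1 replicate 3 or G2/M replicate 2 (-0.288) was omitted and over all 4 loci when G1 replicate 3 was, and above 0 in Tcra/Tcrd when G1 replicate 2 or G2/M replicate 3 (1.20) was. The count of 8 windows with an unadjusted limma p under 0.05 stands against 7566 of all 359192 windows. It was 14, against 17594, with libraries centred on their median (11 higher in G1). With the replicate block it was 14, against 17356 (11 higher in G1). With a library left out it lay between 2, against 5344 (G2/M replicate 1 omitted), and 12, against 13499 (G2/M replicate 3 omitted). It was 5 when G1 replicate 1, G1 replicate 3 or G2/M replicate 2 was omitted, against 6808, 10913 and 6419. In each of these settings the share in the loci was below that of the whole table. With the replicate block the paired phase differences have the same means, 2.31 in Igh, 1.53 in Igk, -1.04 in Tcra/Tcrd and 2.77 in Tcrb, and no call was possible with or without it. Percentages without read counts limit the precision of every value here.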
